A study of Rattus norvegicus with 98 samples.

Results

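The nucleus accumbens is the ventral part of the striatum, a forebrain structure that takes part in motivation and in the response to reward. Its shell and its core differ in their inputs and outputs, and both are built mostly of GABAergic projection neurons. H3K27ac, acetylation of lysine 27 on histone H3, marks active promoters and active enhancers, and enhancers carry this mark in fewer tissues and cell types than promoters do. A stretch of genome that bears H3K27ac in the accumbens but in few other brain regions is therefore the kind of element by which such profiles tell regions apart.

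The windows described here are 558 stretches of 1 kb on chromosomes 1 to 20 of the Rn5 rat assembly. They were selected on the measured peaks themselves. A window was called occupied in a library when peaks of that library covered 500 bp or more of it. A window was kept when it was occupied in 6 or more of the 8 libraries of the accumbens shell (NaCshell) and core (NaCcore), and in 10% or less of the 84 libraries of other regions, which is at most 8 of them. The 558 windows are 1.63% of the 34318 windows occupied in 6 or more accumbens libraries, and 284178 windows were occupied in any library outside the habenula (HB), whose 2 libraries stood outside the rule.

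Male Long-Evans rats aged 2 months received fluoxetine, a selective serotonin reuptake inhibitor, at 18 mg/kg in their drinking water for 6 weeks (FT) or water alone (Sham). The mark was measured by ChIP-seq, in which fragments bound by an H3K27ac antibody are sequenced, on frozen tissue punches, with 4 FT and 4 Sham libraries of the accumbens, 2 per treatment in each subregion. A punch holds all cell types of a region, and tissue of several animals was pooled for every replicate, so fewer cells of a type and less acetylation per cell cannot be told apart, and the spread between replicates is that between pools. The punches of a replicate were taken from shared animals across regions, and FT and Sham of one replicate number were processed in parallel.

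Peak lists of the 8 accumbens libraries held 24429 to 49521 peaks, and the lists of all libraries outside HB held 19378 to 54505. Sequencing depth is unknown, since the lists hold no read counts. FT lists of the accumbens averaged 42322 ± 11960 peaks and Sham lists 30364 ± 4138 (SD, n = 4 each), and FT shell replicate 1 had the shortest list of the 8. A longer list can occupy more windows for that reason alone, so each share below is set beside the same share over all 34318 windows occupied in 6 or more accumbens libraries. Peaks on those windows scored higher in each accumbens library, and more of them were occupied in all 8. They therefore take out the effect of list length only in part. On lists cut to equal size, 7 of the 8 accumbens libraries had another accumbens library as the most similar of all, by the Jaccard index (windows occupied in both over windows occupied in either). The exception was Sham shell replicate 1, whose most similar library was replicate 2 of Sham BLA (basolateral amygdala) at 0.622. Its index was nearly the same with Sham shell replicate 2, at 0.615, and averaged 0.577 over the other shell libraries. Rn5 annotation and sequence were not used here. The windows are therefore given by position without gene names or bases, and marker genes of the accumbens could not be checked.

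Most of the windows were short, isolated and near the limits of the rule. Of the 558, 342 were occupied in 6 accumbens libraries, 161 in 7 and 55 in all 8. On the other side, 10 were occupied in no library outside the accumbens and 77 in 8 libraries. Just beyond the limits lay 719 windows occupied in 5 accumbens and at most 8 other libraries, and 64 windows occupied in 6 or more accumbens and in 9 other libraries. These counts follow from the rule and describe it only. Adjoining windows were joined into 510 loci, of which 462 were single windows and 48 were pairs.

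Occupancy fell off within 2 kb of a window in the accumbens libraries. Averaged over the 4 FT accumbens libraries, 97.3% of the windows were occupied, 45.7% of those 1 kb further along the chromosome and 5.78% of those 2 kb further. The 4 Sham libraries had 64.9%, 22.6% and 1.88% at the same places. In BLA and BNST (bed nucleus of the stria terminalis) the same shape appeared at a lower level, with 41.4% at the window and 20.9% at 1 kb. Libraries of the remaining regions had no such rise, with 2.04% at the window, which the rule keeps low, and 5.52% at 1 kb.

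**Figure D1:**
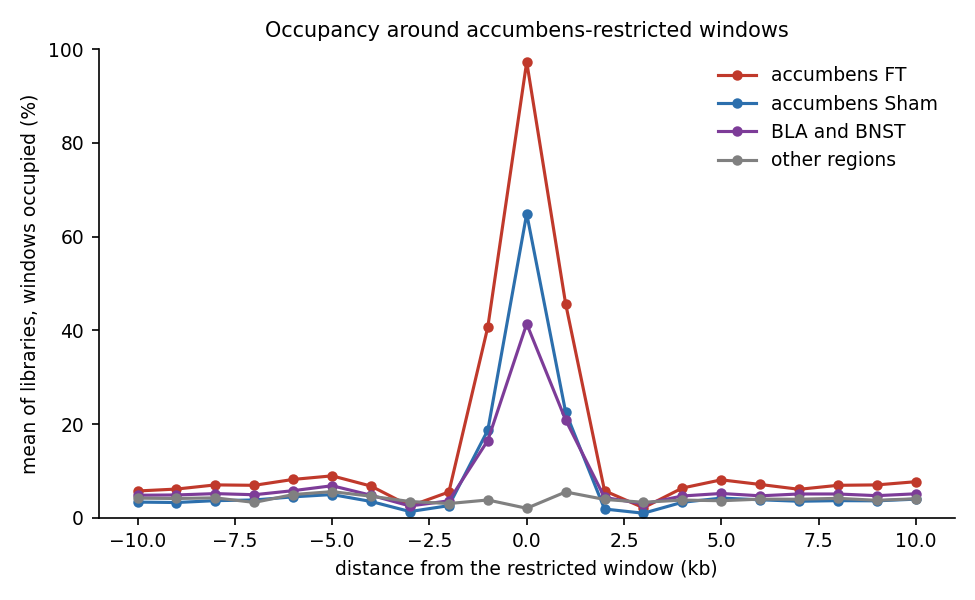
Mean percent of windows occupied (vertical axis) at 1 kb steps from 10 kb before to 10 kb after each of the 558 restricted windows (horizontal axis), for the 4 FT and 4 Sham accumbens libraries, the 8 BLA and BNST libraries and the libraries of all remaining regions. The accumbens lines fall from 97.3% (FT) and 64.9% (Sham) at the window to 5.78% and 1.88% at 2 kb.

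Most windows stood apart from H3K27ac shared by many regions. For 379 of the 558 (67.9%), no window within 2 kb was occupied in more than 10% of the other libraries. Another 44 (7.89%) lay within 2 kb of a window occupied in more than 50% of the other libraries, so that they were flanks of widely shared elements. The median distance to such a widely shared window was 21 kb. The limit on other libraries at the window itself favours distance from shared windows. No such shares are given for all windows in 6 or more accumbens libraries. In the dentate gyrus, chosen by the same rule on its 8 libraries (dorDG and venDG), 72.9% of 3485 windows stood apart and 5.8% were flanks. In the septum and the amygdala, chosen likewise, 63.2% and 58.2% stood apart and 13.2% and 11.3% were flanks.

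The windows were found on each of the 20 autosomes, with the most on chromosomes 1 (59), 2 (51), 3 (43) and 4 (37). Relative to the windows occupied in 6 or more accumbens libraries, chromosome 11 had the highest share, 33.5 per 1000, and chromosome 5 the lowest, 9.84 per 1000. The median distance from a locus to the nearest other locus was 860.5 kb, and 128 of the 510 loci (25.1%) had another within 100 kb. The 558 windows fell into 388 stretches of 1 Mb, and 37 of these held 3 or more.

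The 3 densest stretches were looked up after their counts were seen. The stretch at chr11:71000001-72000000 held 8 restricted windows of its 32 windows occupied in 6 or more accumbens libraries. Its strongest pair, chr11:71942001-71944000, had mean score percentiles of 70.6 and 68.3 over the accumbens libraries that occupied it. The stretch at chr17:13000001-14000000 held 8 of 19, with 4 of them between chr17:13418001 and chr17:13432000. The stretch at chr1:53000001-54000000 held 6 of 16, all between chr1:53775001 and chr1:53972000, and each of these 6 was occupied in 3 or 4 BLA libraries. The window chr1:53798001-53799000 was the strongest there, at a mean percentile of 89.2 in 7 accumbens libraries, with 3 libraries outside.

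Whether the pattern held in libraries that did not choose the windows was tested by choosing in one replicate and reading in the other. Windows occupied in 3 or more of the 4 accumbens libraries of replicate 1, and in 10% or less of its 44 other libraries, numbered 704. In replicate 2, which comes from another pool of animals, the mean over shell and core was 65.1% of these windows, against 7.38% ± 8.88 (SD, n = 21 regions) in the others. Core had 73.8% and shell 56.5%, and they were the 2 highest of 23 regions. The difference of 57.8 percentage points had a two-sided p of 0.00395 by an exact permutation test over regions, the smallest that 253 arrangements can give. Without the limit on other regions the difference was 10.5 points: the 33489 windows occupied in 3 or more accumbens libraries of replicate 1 were occupied at 91.5% in the accumbens and 80.9% elsewhere in replicate 2. Of the 704 windows, 447 (63.5%) were among the 558. Both replicates chose the 558, so the test bears on the windows chosen in replicate 1 alone. It treats regions as exchangeable, although the choice had favoured shell and core.

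The reverse choice gave a smaller difference. Choosing in replicate 2 gave 2589 windows, of which 528 (20.4%) were among the 558, so that this test bears mostly on other windows chosen in the same way. In replicate 1 the accumbens mean was 43.7% against 6.26% ± 9 (SD, n = 22 regions), a difference of 37.4 points (exact permutation test over regions, two-sided p = 0.0109, 276 arrangements). Without the limit on other regions, 47854 windows were chosen in replicate 2 and the difference in replicate 1 was -6.51 points, with 73.2% in the accumbens and 79.7% elsewhere. With Benjamini-Hochberg adjustment over the 2 exact tests the p-values were 0.00791 and 0.0109. Core was again the highest region at 60.1%. Shell, at 27.2%, lay below BLA (34.5%) and BNST (31.6%) and above LS (lateral septum, 9.87%). The library values in replicate 1 ran from 16.8% in Sham shell and 28.8% in Sham core to 37.7% in FT shell and 91.4% in FT core. One library carried much of this: without FT core replicate 1, the difference was 21.7 points (p = 0.0217, same exact test). In Sham libraries alone the differences were 42.1 and 19.6 points, and in FT libraries alone 73.4 and 55.2 points, for windows chosen in replicate 1 and 2.

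**Figure D2:**
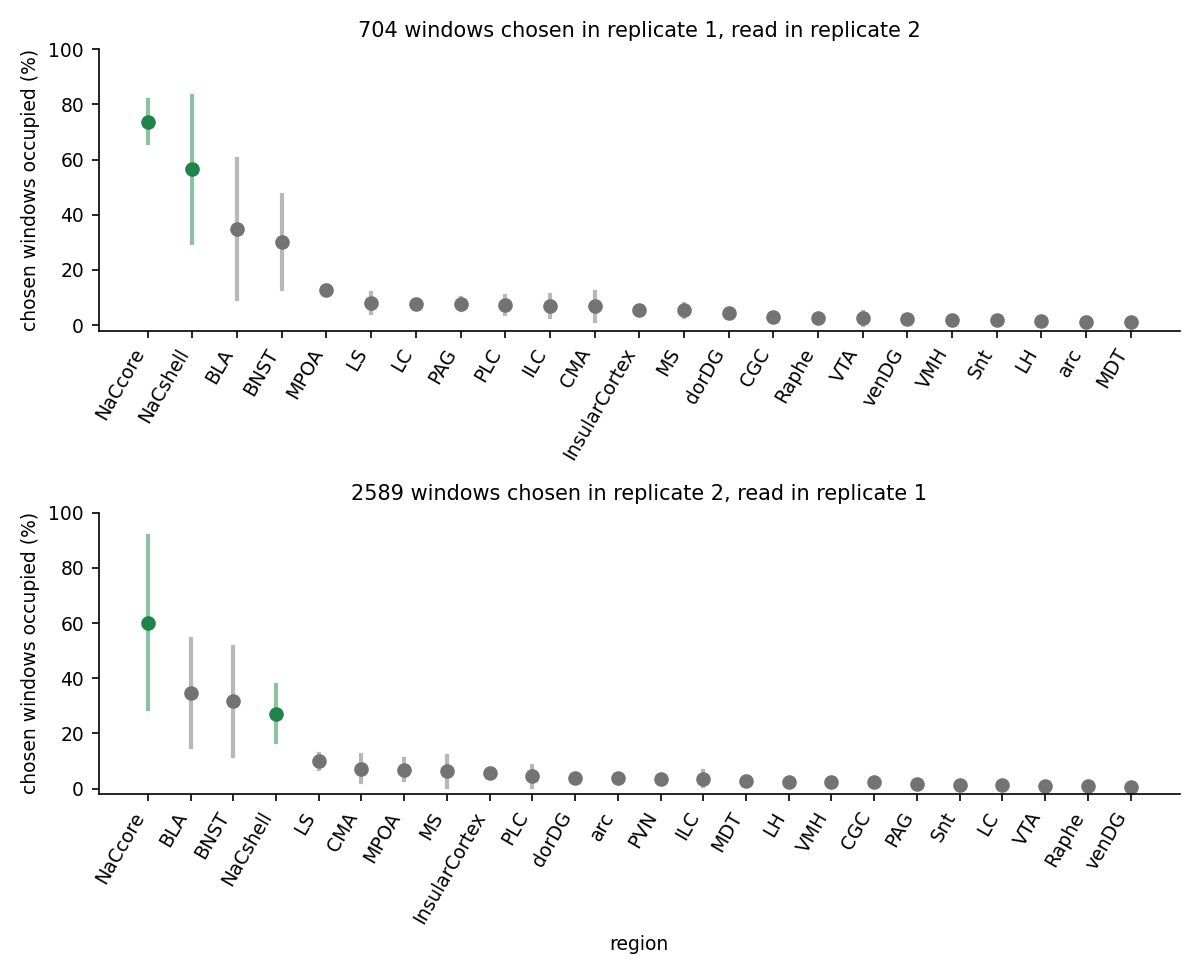
Percent of chosen windows occupied (vertical axis) by region (horizontal axis), for 704 windows chosen in replicate 1 and read in replicate 2 (top) and 2589 chosen in replicate 2 and read in replicate 1 (bottom). Points are region means, lines run from the lower to the higher library of the region, and the accumbens subregions (green) average 65.1% and 43.7%.

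The 8 accumbens libraries did not hold the 558 windows equally. Occupancy in these libraries chose the windows, so the shares by treatment and subregion are given as a description, with no test. Sham shell had 54.3% of them in replicate 1 and 39.2% in replicate 2, and Sham core had 75.1% and 90.9%. FT shell had 89.4% and 100%, and FT core 99.6% and 100%. Within each subregion both FT libraries lay above both Sham libraries, while over the 8 libraries FT shell replicate 1 lay just below Sham core replicate 2. Over all windows occupied in 6 or more accumbens libraries the Sham libraries had 91.2%, 82.8%, 88.2% and 96.6% in the same order, and the FT libraries 76.2%, 99.6%, 99.7% and 99.8%.

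The mean was 97.3% ± 5.23 in FT and 64.9% ± 22.7 in Sham (SD, n = 4 each), a difference of 32.4 percentage points. Over all windows occupied in 6 or more accumbens libraries, which did not have to pass the limit on other regions, the difference was 4.11 points, 28.3 points less.

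For these same windows, the difference did not shrink on accumbens lists of equal length. When each accumbens list was cut to its 24429 best-scoring peaks, the length of the shortest, the same windows were occupied at 38.9% and 33.7% in Sham shell, 64.7% and 69.4% in Sham core, 89.4% and 90.7% in FT shell, and 84.4% in both FT core libraries. All 4 FT libraries then lay above all 4 Sham libraries, with a difference of 35.6 points, against 1.63 points for all windows in 6 or more accumbens libraries. On the same cut lists the libraries held 87.8% and 80.9% of all such windows in Sham shell, 85.7% and 89.9% in Sham core, 76.2% and 90.2% in FT shell, and 92.5% and 92.0% in FT core. Only the FT shell libraries, the shortest list among them, thus held as large a share of the restricted windows as of all windows, and the FT core libraries held a smaller one. With every list cut to 19378 peaks and the windows chosen anew, 817 windows met the rule. The FT minus Sham difference was then 27.9 points, over other windows and with the lists of all regions cut. The part of list length in these differences was not tested. The size of the difference rests on the windows chosen: with 1 library left out, windows must be occupied in 6 of 7. The difference was 19.1 points without FT shell replicate 1 and 15.9 without FT shell replicate 2. Without FT core replicate 1 and 2 it was 16.9 and 16.8. Without Sham core replicate 1 and 2 it was 18.8 and 21, and without Sham shell replicate 1 and 2 it was 30.4 and 24.3.

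**Figure D3:**
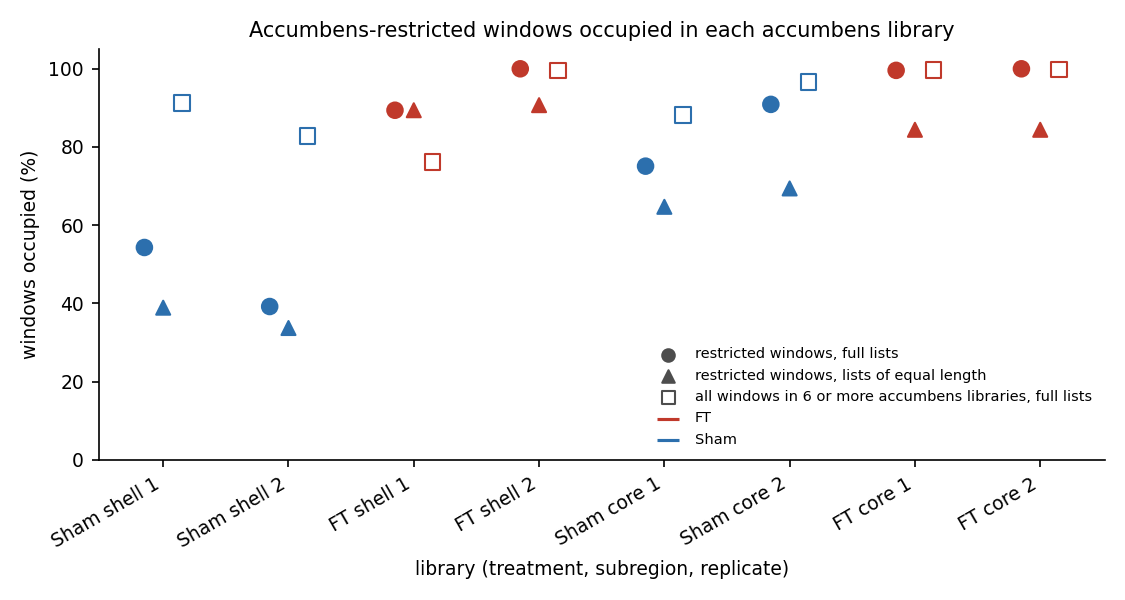
Percent of windows occupied (vertical axis) in each of the 8 accumbens libraries (horizontal axis), for the 558 restricted windows on full lists (circles) and on lists cut to 24429 peaks (triangles), and for all 34318 windows in 6 or more accumbens libraries (open squares). On cut lists the FT libraries lie between 84.4% and 90.7% and the Sham libraries between 33.7% and 69.4%.

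The empty libraries were mostly Sham. The rule allows at most 2 empty accumbens libraries per window. In 442 of the 558 windows (79.2%), all 4 FT libraries were occupied and 1 or 2 Sham libraries were empty, where 20.1% of the 34318 windows in 6 or more accumbens libraries had this pattern. In 8 windows (1.43%) all 4 Sham libraries were occupied and an FT library was empty, against 11.2% of the 34318. Restricted windows more often had an empty library at all, and among the windows with one, these patterns made up 87.9% and 1.59% of the restricted windows and 45.2% and 25.2% of the background. The most frequent single pattern was 4 FT and 2 Sham libraries, in 289 windows (51.8%, against 7.98%). All 8 libraries were occupied in 9.86% of the restricted windows and in 55.6% of the 34318.

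Between subregions the pattern of empty libraries was close to the background. Shell libraries had 70.7% ± 28.7 of the restricted windows and core libraries 91.4% ± 11.7 (SD, n = 4 each). The mean of the 4 shell minus core differences, paired by treatment and replicate, was -20.7 points, and -12.5 points on lists of equal length. In 331 windows (59.3%, background 29.7%) all core libraries were occupied and a shell library was empty, and in 49 (8.78%, background 5.38%) the reverse. Among windows with an empty library these shares were 65.8% and 9.74%, against 66.9% and 12.1% in the background. FT minus Sham was 47.9 points in shell and 16.8 points in core.

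The peaks on these windows were of low to middling strength, with lower medians in Sham. Each peak carries a score of the peak caller, and its percentile within the list says what share of the library's peaks score lower or equal. Median percentiles on the restricted windows were 31.4 and 38.9 in Sham shell, 38.7 and 49.9 in Sham core, 50.2 and 71.5 in FT shell, and 66.0 and 68.6 in FT core. Over all windows in 6 or more accumbens libraries they were 70 to 81.2. FT exceeded Sham by 24.3 percentile points on the restricted windows and by 6.25 on all such windows. This too is a description, since each library gives a score only for the restricted windows it occupied, 219 to 558 of them.

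**Figure D4:**
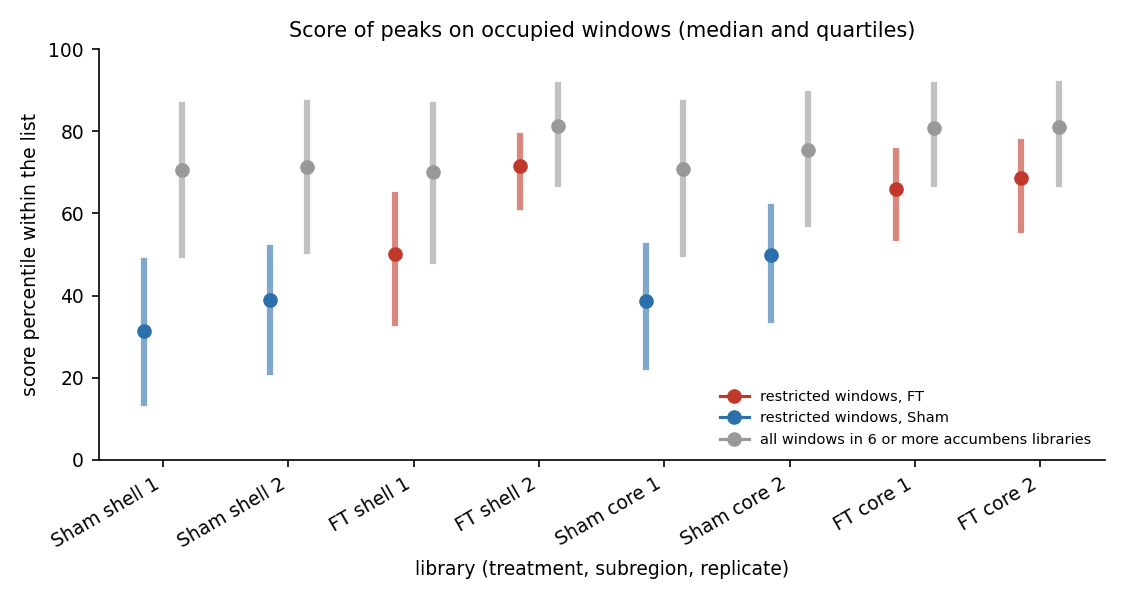
Percentile of the peak score within its own list (vertical axis, 100 is the strongest peak) for peaks on occupied windows in each accumbens library (horizontal axis); points are medians and lines run between the quartiles. Restricted windows have medians of 31.4 to 49.9 in Sham and 50.2 to 71.5 in FT, each below the median of the same library over all windows in 6 or more accumbens libraries.

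A longer list adds weak peaks at its lower end and so raises the percentile of a given peak, so ranks from the top of the list were compared as well. The median rank was 12174 and 14107 in FT shell and 16094 and 15106 in FT core, against 19971 and 16915 in Sham shell and 17264 and 18300 in Sham core. All 4 FT ranks were better than all 4 Sham ranks, by 3742 places on average, over the windows each library occupied and in lists of unequal length. Of the 55 windows occupied in all 8 libraries, 52 (94.5%) had a better mean rank in FT, where 44.2% of all 19088 windows occupied in all 8 had one. That background was not matched for score, and a shift in rank between lists of unequal length can depend on the place in the list. The −log10 p-value of the peaks, which also grows with depth, had medians of 6.06 to 10 in Sham and 7.98 to 30.7 in FT. Median widths were 1200 to 1600 bp in Sham and 1500 to 2100 bp in FT.

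A few windows were strong. The mean percentile over occupied accumbens libraries was 90 or more for 4 of the 558, 75 or more for 41 and under 50 for 245. The strongest, singled out after its value was seen, was chr10:55417001-55418000, at 99.3 in 6 accumbens libraries with 7 libraries outside. Another, chr4:173009001-173010000, reached 90.5 in 6 accumbens libraries and was occupied in 1 library elsewhere.

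Outside the accumbens the windows were occupied above all in BLA, whose neurons project to the accumbens, and in BNST, a part of the extended amygdala. Of 2713 occupancies in other libraries, 1849 (68.2%) lay in the 8 libraries of these regions, which held 6.64% of the occupancies of all 149660 windows occupied in 1 to 8 other libraries. The pair was picked after its values were seen. The mean was 45.2% of the windows in BLA and 37.7% in BNST. LS followed at 8.42%, CMA (centromedial amygdala) at 5.87%, MPOA (medial preoptic area) at 5.62% and MS (medial septum) at 5.11%, and 10 of the 22 other regions had less than 1%. CMA, BNST and LS together held 42.8%, against 10.7% of the same background, and most of that was BNST.

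FT and Sham libraries of BLA and BNST lay apart as well. The 2 FT libraries of BLA occupied 73.5% and 75.4% of the windows and the 2 Sham libraries 23.5% and 8.24%. In BNST the FT libraries had 73.5% and 58.4% and the Sham libraries 15.6% and 3.23%. With 2 libraries against 2 the smallest two-sided exact p is 0.333, so neither region was tested alone. Both FT libraries lay above both Sham libraries in 11 of the 19 other regions with 4 libraries, and the reverse occurred in none. No such count of regions is given for background windows, and some of the 11 rest on few windows. In MDT (mediodorsal thalamus) the FT libraries held 4 and 7 of the windows and the Sham libraries 0. FT libraries held 83.2% of all occupancies outside the accumbens, against 63.1% for the windows occupied in 1 to 8 other libraries.

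List length moved with this result. The FT lists of BLA held 50699 and 51269 peaks and the Sham lists 43143 and 31893. On lists cut to 19378 peaks the FT mean in BLA was 13.7% and the Sham mean 1.88%, and in BNST 6.36% and 0.986%. Both FT libraries remained above both Sham libraries in BLA and BNST, and in 6 of the 19 regions in all. Among these was PAG (periaqueductal gray), with 1 window in each FT library and 0 in Sham. At the same list size the accumbens libraries, which chose the windows, had 66.7% to 79.2% in FT and 25.4% to 50% in Sham. Each then lay above the BLA and BNST means. On full lists Sham shell replicate 2, at 39.2%, lay below the BLA mean of 45.2%. Both Sham shell libraries (54.3% and 39.2%) lay below each FT library of BLA and BNST.

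**Figure D5:**
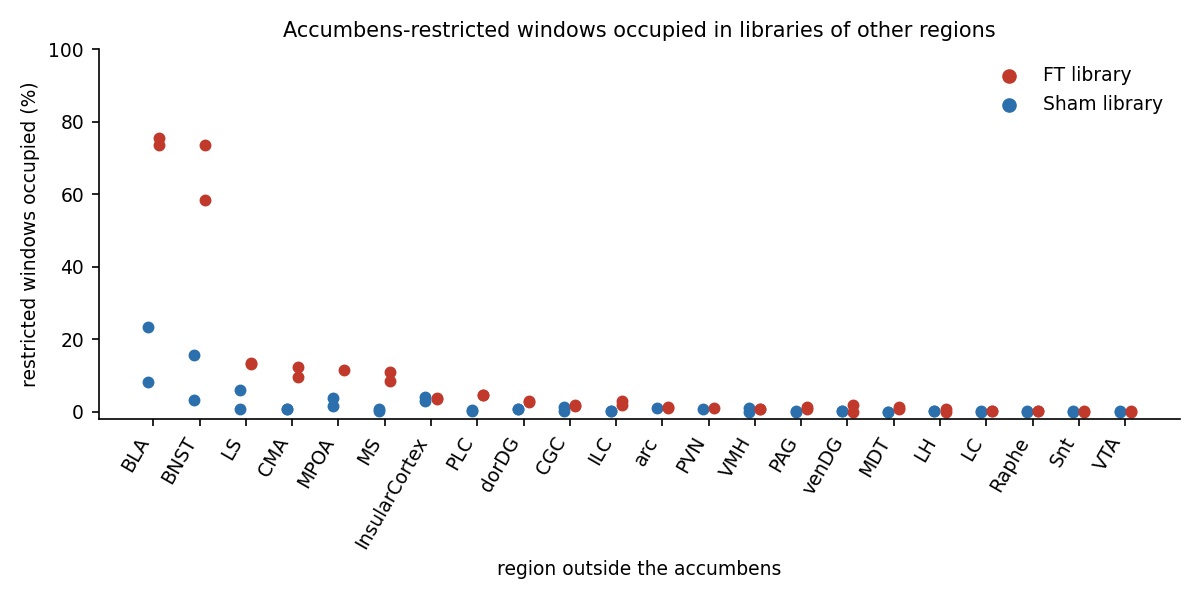
Percent of the 558 restricted windows occupied (vertical axis) in each FT and Sham library of the 22 regions outside the accumbens (horizontal axis, ordered by mean). FT libraries of BLA (73.5% and 75.4%) and BNST (73.5% and 58.4%) stand above their Sham libraries and above the libraries of all regions to their right.

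Peaks on the windows in BLA and BNST were weaker than in the accumbens. The rule favours this direction, since it asks for peaks in the accumbens and few elsewhere, so the values are a description. In the FT libraries of BLA their median percentiles were 43.3 and 43.5, and in those of BNST 35.3 and 33.7, against 50.2 to 71.5 in FT accumbens libraries. In the Sham libraries of both regions they were 17.7 to 28.1. Many windows that did not count as occupied were still touched by a peak: 85.1% and 84.6% of the windows overlapped a peak of an FT BLA library by any amount. Counted by any overlap, 358 of the 558 windows would remain in 8 or fewer other libraries, and 6 were touched by no peak elsewhere.

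Single windows shared BLA and BNST in most cases. Both regions were represented in 385 windows (69.0%), BLA without BNST in 73, BNST without BLA in 77 and neither in 23. No such shares are given for background windows, so these counts describe the restricted windows only. All 4 FT libraries of the pair were occupied in 215 windows, and in 95 of these no Sham library of the pair was. These counts make up 40.2% and 17.8% of the 535 windows with a library of the pair. The shares were 2.74% and 1.62% of the 19484 such windows among those occupied in 1 to 8 other libraries. That background was not matched for the number of other libraries, and a window in fewer than 4 cannot hold all 4 FT libraries. An FT library without any Sham library of the pair occurred in 318 windows (59.4%), a share near the 62.6% of that background. A Sham library without any FT library occurred in 5 (0.935%, background 26.1%). The FT minus Sham difference in the accumbens was as large without these regions, at 34.8 points in the 23 windows with neither.

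The 6 loci named as longest are 2 windows long and were taken from 48 of that length for the fewest other libraries, 2 to 4 per locus, where the median window had 5. At chr8:49095001-49097000 the strongest peak had percentiles of 17.0 and 32.0 in Sham shell, 18.3 and 45.2 in Sham core, 60.8 and 67.5 in FT shell, and 77.9 and 80.1 in FT core, and BNST, with 2 libraries, was the only region outside. All 4 FT values exceeded all 4 Sham values there. At chr3:115683001-115685000 the percentiles were 23.5 and 42.9 in Sham shell, 40.6 and 50.4 in Sham core, 56.0 and 78.3 in FT shell, and 74.5 and 78.6 in FT core, with 2 BLA libraries and 1 BNST library outside. Again no FT value fell below a Sham value.

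The other 4 long loci each had 1 or 2 empty Sham libraries. At chr15:2299001-2301000 both Sham shell libraries were empty, and 1 BLA and 1 BNST library were occupied. At chr2:222194001-222196000 Sham shell replicate 1 was empty and 2 BNST libraries were occupied. At chr4:154422001-154424000 Sham shell replicate 2 was empty and the only libraries outside were 2 of BLA, while at chr1:251916001-251918000 Sham core replicate 1 and Sham shell replicate 2 were empty and BLA and BNST had 2 libraries each. No locus was empty in an FT library among these 6.

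No window was occupied in all 8 accumbens libraries and in no other. The 10 windows with no other library were occupied in 6 accumbens libraries in 9 cases and in 7 in the remaining one, chr9:83326001-83327000, whose percentiles were 51.0 and 77.2 in FT shell, 62.6 and 63.5 in FT core, 7.19 and 45.4 in Sham shell and 39.4 in Sham core replicate 2. Sham core replicate 1 was empty there. Of the 10, 6 were touched by no peak of any other library.

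Among the 53 loci with a window occupied in all 8 libraries, the largest FT minus Sham differences of the mean percentile were at chr4:42960001-42961000, 42.6 points, and chr17:13392001-13393000, 41.4 points. At chr4:42960001-42961000 the percentiles were 24.9 and 44.0 in Sham shell, 13.0 and 7.04 in Sham core, 37.7 and 78.4 in FT shell, and 74.9 and 68.3 in FT core. FT shell replicate 1 lay below Sham shell replicate 2, so the groups overlapped. At chr17:13392001-13393000 Sham shell replicate 1 reached 60.2, while the other Sham libraries had 4.64 to 9.97 and the FT libraries 53.3 to 71.5.

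None of these 53 loci had a higher mean percentile in Sham, but percentiles rise with list length and no background share is given for this count. By rank from the top, 52 of the 55 windows in all 8 libraries (94.5%) were better in FT, against 44.2% of all 19088, which were not matched for score. The smallest percentile differences were 1.23 points at chr7:71141001-71142000 and 7.22 points at chr2:49286001-49287000, and these were of another kind than most. The first had percentiles of 94.5 to 96.3 in Sham and 95 to 99.1 in FT, so the groups overlapped. It was empty in BLA and BNST, and its 6 libraries outside were 2 of insular cortex and 1 each of ILC (infralimbic cortex), PLC (prelimbic cortex), LS and dorDG. The second had 67.6 to 90.7 in Sham and 86.0 to 93.2 in FT, with 1 library each of BNST, MPOA and MS outside.

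The same rule applied to pairs of other regions gave other counts. It chose 3485 windows in the dentate gyrus, 282 in the amygdala (BLA and CMA) and 76 in the septum (LS and MS), which is 6.32%, 0.541% and 0.182% of the windows occupied in 6 or more of their 8 libraries, against 1.63% in the accumbens. FT libraries occupied more of the chosen windows than Sham libraries by 33.9 points in the amygdala and 42.4 points in the septum, and by 4.61 points in the dentate gyrus, against 32.4 in the accumbens. Over all windows in 6 or more libraries these differences were 10.3, 15.7, -1.09 and 4.11 points. These sets share pools of animals, and the differences between them were not tested.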

How the data were processed

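H3K27ac peak lists of 94 libraries (47 Sham, 47 FT, 25 regions) were read as deposited; the 4 input libraries entered no comparison. According to the submitters' processing notes the authors used BWA and the rn5 build, and by the study's methods they called peaks on each library separately with DFilter, with no version stated. The deposited lists give each peak's position, its maximum score, a −log10 p-value (4 to 200), a rounded normalised tag count used here as no measure (a score), and a false discovery rate in percent, 0 throughout. The lists hold no reads, so depth is unknown and no count model was used. Starts were read as counting from 0 and are printed counting from 1.

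Windows, loci, exact permutation tests and figures were made with Python 3.11.15, numpy 2.4.6, pandas 2.3.3, scipy 1.17.1 and matplotlib 3.10.9, and tested on simulated lists. Scores were used only as ranks within a list. Loci named are the 6 longest (ties by fewer other libraries, then position), the 6 strongest with a window in all 8 accumbens libraries and no other (none met this) and the 2 with the largest percentile difference in each direction. Exact tests of treatment and subregion over the accumbens libraries had been planned, but the same libraries chose the windows, so those values are given without a test. The windows, regions compared and tests were chosen with earlier results of these data known. The replicate number marks FT and Sham libraries processed in parallel; as a check, replicate 1 minus replicate 2 was correlated between Sham and FT over windows, with r = -0.0287 in shell and -0.00704 in core. Alternatives were other coverage limits, window sizes and positions, stricter limits, equal-size lists, a stricter p-value, each library left out, and a replicate block.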

Additional observations from a re-analysis of the deposited data

Results flagged for a closer look

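FT shell replicate 1 stood apart from the other 3 FT accumbens libraries, by Dixon's ratio, in its number of peaks (24429), in its share of all windows in 6 or more accumbens libraries (76.2%) and in its share of the restricted windows (89.4%). Among the Sham libraries, core replicate 2 stood apart in its number of peaks (36508). Of 12 groups of 4 examined, chance alone marks about 1 in 20, and the 3 values of the FT library are not independent of each other.

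Some signal lay in data the rule leaves out. On chromosome X, 8 windows met its limits, of 908 in 6 or more accumbens libraries; the one occupied in no other library was chrX:119791001-119792000, with 6 accumbens libraries. In the habenula, the FT library occupied 9 of the restricted windows (1.61%) and the Sham library 0.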

How the results depend on the processing

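The number of windows was 245 with at most 5% of other libraries, 55 with all 8 accumbens libraries, 237 with windows of 2 kb and 366 with peaks at a −log10 p-value of 6 or more, and 216 to 468 with 1 accumbens library left out; it stayed within 1.5 times of 558 in the 6 other alternatives. The lower number with a library left out follows in part from the rule, which then allows 1 empty library. With 1 library left out, the FT minus Sham difference ran from 15.9 to 30.4 points, that less all windows from 12.5 to 27.7, the percentile difference from 20.2 to 30.8 and shell minus core from -19.7 to -1.41. On equal-size lists with the windows chosen anew, these were 27.9, 25.7, 17.1 and -14.5 points, in the same order. The share of windows with empty libraries whose empty libraries are all Sham was 87.9%; it was 82.7% at 700 bp coverage, 84.7% with at most 5% of others, 91.3% both with 2 kb windows and with equal-size lists, 90.7% at the stricter p-value and 90.2% to 100% with 1 library left out. The share of outside occupancy in CMA, BNST and LS was 46.2% with all 8 libraries, 32.6% with equal-size lists, 40.4% at the stricter p-value and 42.8% to 45.2% with 1 library left out. That in BLA and BNST was 66.2% at 700 bp, 83.3% with at most 5% of others, 70.1% with all 8 libraries, 51.8% with equal-size lists and 65.4% to 69.5% with 1 library left out. The cause of these moves was not tested. Permuting labels over the 8 libraries, or a replicate block that pairs by replicate number, cannot change the size of a difference here. This holds for the 32.4, 28.3 and 24.3 points between FT and Sham and the -20.7 between shell and core. No test is read from these differences, since the windows were chosen on these libraries. The held-out differences ran from 44.4 to 71.1 points (chosen in replicate 1) and from 21.7 to 53.1 points (chosen in replicate 2) with 1 library left out. No alternative reversed a direction. With all 8 libraries required, differences in occupancy are not defined. Accumbens lists of equal length, ranks from the top, leaving out BLA and BNST, windows apart from shared ones and the share in BLA and BNST were added after seeing the data. Unknown depth limits what an empty window means: a missing peak is not shown to be missing acetylation.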
